A study of Mus musculus with 61 samples.

Results

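The data described here compare phospho-mutant with wild-type Ngn3 in mouse pancreatic ductal organoid cells that carried the Ngn3 reporter. In the phospho-mutant form, 6SA, serines that cyclin-dependent kinases can phosphorylate are replaced by alanine. Cells were included when their sort gate held GFP-Ngn3, which gave 32 of the 61 libraries of the series. Libraries with more than 1000000 counts on genes were kept (29 of the 32) and technical repeats were summed, leaving 17 of the 32 biological samples of the series. They were 8 samples with 6SA and 9 with wild-type (WT) Ngn3. With Ngn3 and LSSOrange-Pdx1 (Ngn3+Pdx1) and with Ngn3 and tdTomato-MafA (Ngn3+MafA) there were 3 samples of each form. With all of them (Ngn3+Pdx1+MafA) there were 2 samples with 6SA and 3 with WT.

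All groups were C57BL/6 organoids infected with separate doxycycline-inducible lentiviral vectors and a vector for the transactivator, and were induced for 8 days. Each library was made from a pool of 50 sorted cells, and because each factor came on its own vector, its dose could differ from cell to cell. Replicates 1 and 2 were at passage 2 of the organoids and replicate 3 at passage 5. With Ngn3+Pdx1+MafA only WT had a passage 5 sample, so that contrast, and counts over all 3 combinations, are uneven in passage. The sources do not say whether biological replicates came from separate mice, so the p-values measure only the spread between these samples. Cells were infected with the 3 vectors at once and sorted by colour afterwards. Samples of the same form and replicate number may thus share a culture. Results that recur across the combinations may therefore not be independent repeats, and the same holds for pairs of samples within them. As background, 15 samples of cells sorted from the same kinds of culture without the Ngn3 reporter were used (8 from 6SA and 7 from WT cultures, positive for Pdx1, MafA or both). Among the cells positive for MafA alone, only the 6SA cultures gave a passage 5 sample, so this background is uneven in passage too.

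Ngn3, encoded by Neurog3, is a basic helix-loop-helix transcription factor that starts endocrine differentiation in the embryonic pancreas. It pairs with E proteins, binds E-box sequences and turns on a second layer of factors such as Neurod1, and it is needed for all islet lineages. The protein is short lived, and phosphorylation on serines that precede a proline, the motif preferred by cyclin-dependent kinases, lowers its stability and activity.

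The reading frame of Neurog3 is shown because these serines are what sets the 2 forms apart. Neurog3 lies on chromosome 10 of GRCm38 on the forward strand, and its reading frame occupies 1 coding segment of 214 codons. It holds 24 serine codons, and 6 of them are followed by a proline codon. The wild-type sequence around each is given with the serine codon in capitals and 12 bases on either side, and each stretch lies inside the coding exon.
Serine codon 14, chr10:62133490-62133516: accatccaagtgTCCccagagacacaa
Serine codon 38, chr10:62133562-62133588: tccaccccacctAGCcccactctcata
Serine codon 160, chr10:62133928-62133954: ggagagctggggAGCcccggaggtggc
Serine codon 174, chr10:62133970-62133996: ggctctatctacTCCccagtctcccaa
Serine codon 183, chr10:62133997-62134023: gcgggtaacctgAGCcccacggcctca
Serine codon 199, chr10:62134045-62134071: caggtgcccagcTCCccatcctatctg
The first pair of these codons lies towards the amino end of the reading frame and the other 4 lie towards its carboxyl end. The table counts reads per gene, so it does not tell the vectors' Neurog3, Pdx1 and Mafa transcripts from those of the cells' own genes.

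Total gene counts per sample ranged from 6493206 to 19461008 (median 9290100) with 6SA and from 2579583 to 12611342 (median 6884959) with WT. In all 8 pairs of samples with the same factors and replicate number the 6SA sample was the deeper one, and in 7 of 8 it had more genes detected. The 8 samples with 6SA summed 16 kept libraries of 50 cells each, and the 9 with WT summed 13. Thinning, used below, evens out counts but not the number of cells. Levels are given as CPM, a gene's share of the sample's gene counts after TMM scaling, on the usual CPM scale. A level set by 3 counts was between 0.154 and 1.16 CPM, which covers counting error only. Of 3 lists of markers of other pancreatic cell types, 6 of 15 acinar, 2 of 18 mesenchymal and endothelial and 2 of 14 leukocyte markers had no counts in any of the 17 samples. The summed acinar markers were at 4.62 to 43.8 CPM with 6SA and 3.51 to 56.4 CPM with WT. The summed mesenchymal and endothelial markers were at 18.9 to 116 CPM and 19.3 to 461 CPM, and the leukocyte markers at 11.7 to 49.5 CPM and 1.55 to 38.8 CPM.

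No gene passed the edgeR test for a difference between the forms. The contrast was taken within each combination and averaged over the 3 combinations, in one edgeR quasi-likelihood model of all 12 conditions. At an adjusted p under 0.05, 0 of 24004 genes tested were called (0.0%). At an unadjusted p under 0.05 there were 1421 genes (5.92%), of which 785 (3.27%) were higher and 636 (2.65%) were lower with 6SA. DESeq2 called 26 genes (0.153% of the 16986 genes it gave an adjusted p), 10 higher and 16 lower. No gene had all 8 samples with 6SA above or all below the 9 samples with WT (0.0%). The median standard error of a log2 fold change was 0.63 over all genes.

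Directions were compared across the combinations as a description. The log2 fold change was above 0 in 56.1% of genes, with a median of 0.08. It was above 0 in all 3 combinations for 18.4% of genes and below 0 in all 3 for 11.2%. In the 8 same-numbered pairs, 194 genes (0.808%) were higher with 6SA in every pair and 54 (0.225%) were lower in every pair. After every sample was thinned to 2579583 counts, a step chosen after the data were seen, these numbers were 156 and 60.

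The 3 reprogramming factors were measured in both forms at overlapping levels. Neurog3 ranged from 24.9 to 329 CPM with 6SA (median 98.0) and from 7.87 to 212 CPM with WT (median 53.6). The log2 fold change was 0.62 (95% confidence interval −0.42 to 1.66, edgeR adjusted p = 0.974), and 4 of 8 same-numbered pairs were higher with 6SA. Without 6SA Ngn3+Pdx1 replicate 1 it was 0.14 and without WT Ngn3+MafA replicate 2 it was 1.02. By combination it was 1.33 with Ngn3+Pdx1, −0.43 with Ngn3+MafA and 0.97 with Ngn3+Pdx1+MafA. In cells without the Ngn3 reporter Neurog3 was at most 0.788 CPM, below the lowest sample with the reporter. Pdx1, the homeobox factor of pancreas formation and mature β-cells, ranged from 3.21 to 150 CPM with 6SA (median 32.5) and from 4.39 to 191 CPM with WT (median 30.9). Its log2 fold change was 0.43 (−0.43 to 1.30, edgeR adjusted p = 0.9999), and 0.09 without 6SA Ngn3+MafA replicate 1. Mafa, which activates insulin transcription in mature β-cells, ranged from 0 to 12.7 CPM with 6SA and from 0 to 8.63 CPM with WT, and was at or near 0 in the samples sorted without the MafA reporter.

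Neurod1, a direct target of Ngn3 that carries the endocrine programme forward, was higher with 6SA in all 8 same-numbered pairs. In 6SA Ngn3+Pdx1 its levels were 240, 183 and 43.4 CPM (replicate 1, then 2, then 3), against 163, 87.4 and 20.01 CPM with WT. With Ngn3+MafA it was at 170, 170 and 22.2 CPM against 73.6, 110 and 22.1 CPM. With Ngn3+Pdx1+MafA it was at 220 and 232 CPM against 199, 222 and 67.6 CPM. The forms overlapped, and replicate 3, at passage 5, was the lowest sample in every group that had one. The log2 fold change was 0.69 (−0.18 to 1.56, edgeR adjusted p = 0.904).

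Chga and Chgb encode chromogranins, which package hormones into dense-core granules. Chga ranged from 164 to 5360 CPM with 6SA (median 1900) and from 105 to 3126 CPM with WT (median 491). It was higher in 7 of 8 pairs, with log2 fold changes of 0.87, 1.33 and 1.34 in the 3 combinations and 1.18 over them (−0.17 to 2.53, edgeR adjusted p = 0.876). Chgb ranged from 454 to 7227 CPM with 6SA (median 2427) and from 85.6 to 3048 CPM with WT (median 1079). It was higher in 7 of 8 pairs and its log2 fold change over the combinations was 0.98 (−0.12 to 2.09, edgeR adjusted p = 0.874), with −0.42 for Ngn3+Pdx1. Without 6SA Ngn3+Pdx1 replicate 1 the values were 0.62 for Chga and 0.56 for Chgb. Neither gene passed, and both were at most 4.67 CPM in cells without the reporter. In pools of cells such differences can come from the number of endocrine cells in a pool or from the RNA per cell, which cannot be told apart.

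**Figure D1:**
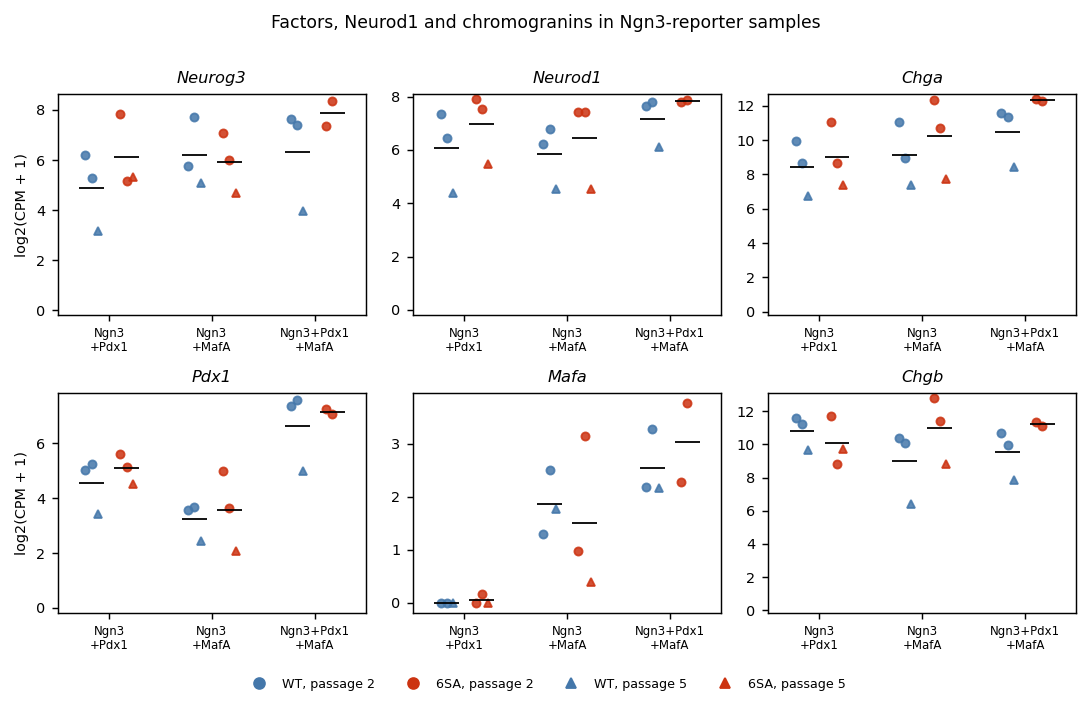
Levels of Neurog3, Neurod1, Chga, Pdx1, Mafa and Chgb in the 17 samples with the Ngn3 reporter, as log2(CPM + 1) on the vertical axis, by factor combination on the horizontal axis. Each point is 1 sample (circles passage 2, triangles passage 5, blue WT, red 6SA) and bars are group means. Samples of the 2 forms overlap for every gene, and the triangles of Neurod1 lie below the circles of their groups.

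The endocrine transcription factors followed Neurod1 in direction. Of 34 tested members of this list, 28 had a log2 fold change above 0 (56.1% of all genes did) and 14 were higher in all 3 combinations (18.4% of all genes), with a median of 0.43 against 0.08 for all genes. In the same-numbered pairs of Ngn3+Pdx1+MafA, both at passage 2, the mean log2(CPM + 1) over the list differed by −0.004 and 0.101. The median log2 fold change of that combination, which includes the WT sample at passage 5, was 0.37. At an unadjusted p under 0.05 only 1 member was higher (Nkx6-2), where 3.27% of all genes were, and 1 lower (Lmx1a), where 2.65% were. When 1 sample was left out, 0 to 6 members were higher at that p. Isl1, which islet cells need to mature, was at 8.41 to 530 CPM with 6SA and 8.17 to 574 CPM with WT, and its log2 fold change was −0.40. The median of this list was 0.34 at passage 2 and 0.65 at passage 5, and it was 0.72 without WT Ngn3+MafA replicate 2. Here and below, passage 5 values rest on Ngn3+Pdx1 and Ngn3+MafA alone, with 1 sample of each form in each. Passage 2 values cover all 3 combinations. All lists were written with results of these samples known and are described by counts and medians, which give no test, and the list members named with values were chosen after their values were seen.

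Genes of β-cells were higher by a list level in every pair. The mean log2(CPM + 1) over the 23 tested genes was between 0.00 and 0.93 higher with 6SA in the 8 pairs (median 0.56), where the mean over all genes tested differed by −0.02 to 0.12 (median 0.04). Of the 23 genes, 18 had a log2 fold change above 0 (56.1% of all genes) and 11 were higher in all 3 combinations (18.4% of all genes), with a median of 0.71. The 5 members higher at an unadjusted p under 0.05, where 3.27% of all genes were, are Slc2a2, G6pc2, Sytl4, Gad1 and Npas4, none of which passed. At passage 5 the log2 fold changes of Slc2a2 and Npas4 were −2.07 and −4.00. Gad1, which makes GABA, was higher in 8 of 8 pairs, at 9.23 to 214 CPM with 6SA (median 37.1) and 0 to 82.3 CPM with WT (median 9.15), a log2 fold change of 2.02 (edgeR adjusted p = 0.78). The median of the list was 0.61 at passage 2, 0.01 at passage 5 and 0.33 without 6SA Ngn3+Pdx1 replicate 1, and 0.66 after thinning.

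Genes of α-cells had a median of 0.30, with 8 of 14 above 0, and those of δ-cells a median of 0.10, with 6 of 11 above 0, both near the 56.1% of all genes. These medians were 0.02 without 6SA Ngn3+MafA replicate 2 and −0.50 without 6SA Ngn3+Pdx1+MafA replicate 1. In the α-cell list Sstr2, a somatostatin receptor, had the lowest p and was higher in 8 of 8 pairs. It was at 6.27 to 109 CPM with 6SA (median 55.6) and 4.76 to 38.6 CPM with WT (median 12.2). Its log2 fold change was 1.92 (0.89 to 2.96, edgeR adjusted p = 0.78), with 2.26, 1.84 and 1.67 in the 3 combinations. Without the reporter Sstr2 was at 0.925 to 17.7 CPM.

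**Figure D2:**
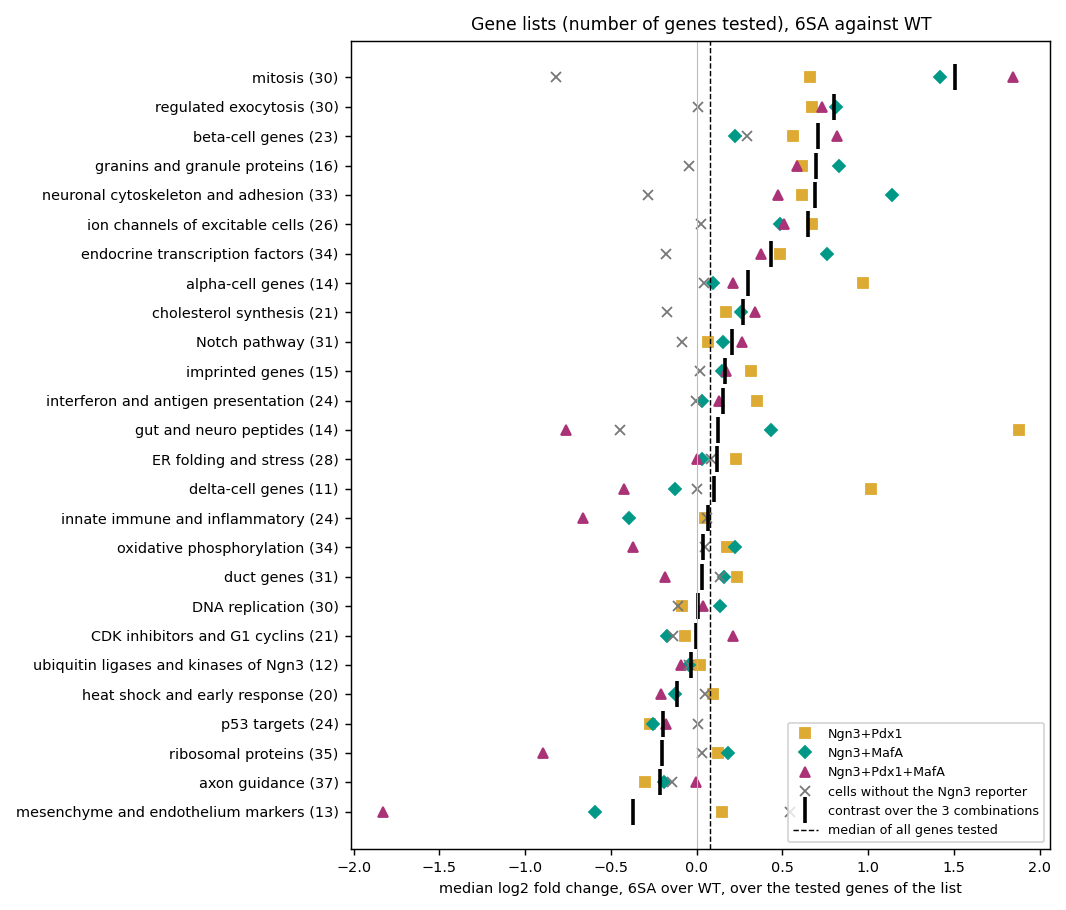
Median log2 fold change of 6SA over WT (horizontal axis) for 26 gene lists with at least 10 genes tested (number of genes in parentheses). Symbols show each combination and cells without the Ngn3 reporter, the upright bar the contrast over the 3 combinations and the dashed line the median of all genes tested (0.08). Regulated exocytosis lies at 0.67, 0.81 and 0.73 in the combinations, and mitosis spreads from 0.66 to 1.85 with −0.82 in cells without the reporter.

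The hormone genes had no direction shared by the 3 combinations, for any of the 8 genes. Sst, the δ-cell hormone somatostatin, ranged from 6.42 to 18480 CPM with 6SA (median 4753) and from 4.54 to 30700 CPM with WT (median 6263). Ghrl, the hormone of ε-cells, ranged from 97.9 to 4934 CPM (median 1002) and from 10.8 to 3053 CPM (median 1168). Iapp, which β-cells secrete with insulin, ranged from 0.15 to 1650 CPM and from 0.15 to 1630 CPM. Replicates of one group differed for these genes by more than the forms did. The log2 fold changes were 0.26 for Sst, −0.45 for Ghrl, 0.05 for Iapp and −1.32 for Pyy, with standard errors of 0.95, 0.61, 0.94 and 1.10 (all edgeR adjusted p of 0.978 or above).

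Insulin transcripts were nearly confined to Ngn3+Pdx1+MafA in both forms. With 6SA the levels of Ins1 were 62.5 and 8.86 CPM (replicate 1, then 2), and with WT they were 153, 39.7 and 0 CPM (replicate 1, then 2, then 3). Ins2 was at 14.2 and 0.09 CPM with 6SA and at 6.16, 0.88 and 0 CPM with WT. In both passage 2 pairs Ins1 was lower with 6SA. In the other 12 samples Ins1 was at most 0.70 CPM and Ins2 had no counts. Gcg, glucagon of α-cells, was at 443 CPM in 6SA Ngn3+MafA replicate 2 and at 359 CPM in WT Ngn3+MafA replicate 3, and at most 1.07 CPM in the other 15 samples. Ppy, pancreatic polypeptide, reached 11.2 CPM in the same 6SA sample and 3.98 CPM in 6SA Ngn3+Pdx1 replicate 3, and was at most 1.66 CPM with WT.

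**Figure D3:**
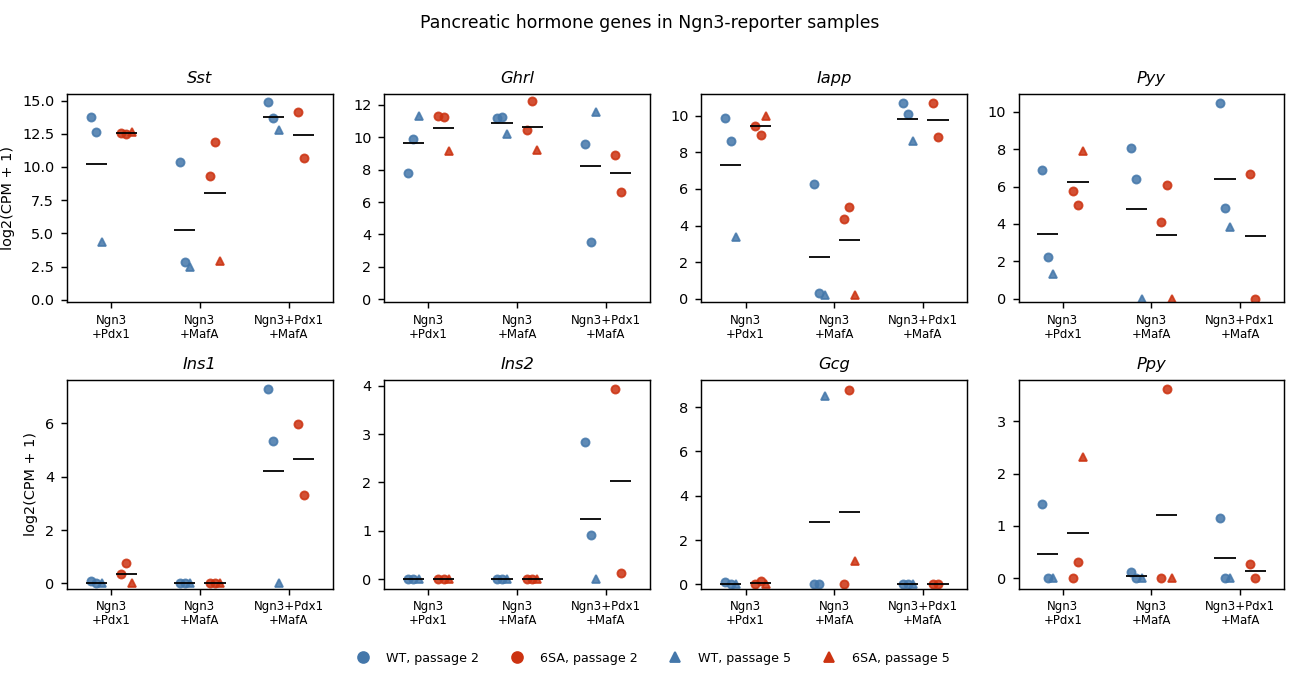
Levels of 8 pancreatic hormone genes in the 17 samples with the Ngn3 reporter, as log2(CPM + 1), by factor combination. Each point is 1 sample (circles passage 2, triangles passage 5, blue WT, red 6SA) and bars are group means. Ins1 reaches 153 CPM only with Ngn3+Pdx1+MafA, and Gcg lies at 443 and 359 CPM in 1 sample of each form with Ngn3+MafA.

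Genes of regulated exocytosis were higher with 6SA by a list level in every pair. They encode the vesicle and membrane proteins that fuse hormone granules or synaptic vesicles in response to calcium. Of 30 members 28 had a log2 fold change above 0 (56.1% of all genes), 23 were higher in all 3 combinations (18.4% of all genes) and the median was 0.80. The list level was higher with 6SA in 8 of 8 pairs, by 0.04 to 0.72 (median 0.53). At an unadjusted p under 0.05, 7 were higher (3.27% of all genes), among them Vamp2, Syt4, Rab3a, Rims2, Sytl4 and Sv2b, and 0 lower (2.65% of all genes). When 1 sample was left out, the number higher ran from 0 to 12. Rims2, a scaffold of the release site, was at 18.9 to 75.6 CPM with 6SA (median 46.4) and 12.1 to 39.4 CPM with WT (median 28.0), a log2 fold change of 0.84 (0.10 to 1.58, edgeR adjusted p = 0.809). The small GTPase gene Rab3a and the vesicle protein gene Vamp2 had log2 fold changes of 0.72 and 0.54. These genes and Rims2 were each higher in 7 of 8 pairs and none passed. Rab3a was at 0.37 without 6SA Ngn3+Pdx1+MafA replicate 1.

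The exocytosis list lay above 0 at passage 2 (median 0.60, 28 of 30 above 0) and was less even at passage 5 (0.43, 17 of 30 above 0). The median was 0.62 when replicate numbers were blocked, and after thinning it was 0.74 with 8 of 8 pairs higher. It was lowest, 0.48, without 6SA Ngn3+Pdx1 replicate 1. In cells without the Ngn3 reporter, where these genes were at a lower level, the median between 6SA and WT cultures was 0.01.

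Granule proteins, ion channels and neuronal genes lay on the same side. Granins and granule proteins were above 0 in 14 of 16 genes (56.1% of all genes), 11 of them in all 3 combinations (18.4% of all genes), with a median of 0.69. In the same-numbered pairs of Ngn3+Pdx1+MafA, both at passage 2, their list level differed by 0.37 and −0.05. The median log2 fold change of that combination, which includes the WT sample at passage 5, was 0.59. Ion channels of excitable cells were above 0 in 22 of 26 (median 0.65), and neuronal cytoskeleton and adhesion genes in 26 of 33 (median 0.69). In the ion channel list Kcnma1, the large-conductance potassium channel, was higher in 8 of 8 pairs, at 2.29 to 184 CPM with 6SA (median 43.8) and 1.97 to 103 CPM with WT (median 16.6), a log2 fold change of 1.24 (edgeR adjusted p = 0.797). At passage 5 the medians of the 3 lists were 0.00, 0.18 and 0.00. Without single samples they ranged from 0.43 to 0.87, from 0.33 (without 6SA Ngn3+Pdx1 replicate 1) to 1.02 (without WT Ngn3+MafA replicate 1), and from 0.38 (without 6SA Ngn3+MafA replicate 1) to 1.14 (without WT Ngn3+Pdx1 replicate 1).

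Axon guidance genes were split between directions. Of 37 members 21 had a log2 fold change below 0, 11 in all 3 combinations (11.2% of all genes), and the median was −0.22. It was −0.30, −0.19 and −0.00 in Ngn3+Pdx1, Ngn3+MafA and Ngn3+Pdx1+MafA and −0.14 between the cultures in cells without the reporter, and the list level was higher with 6SA in 3 of 8 pairs. At an unadjusted p under 0.05, 6 were lower (2.65% of all genes), namely Slit2, Sema3c, Unc5b, Efnb2, Epha4 and Epha5, and 1 was higher (3.27% of all genes), Plxna2. Epha4, a receptor for ephrins that guides cell contacts, was at 5.56 to 61.3 CPM with 6SA (median 38.6) and 2.49 to 140 CPM with WT (median 80.0). Its log2 fold change was −1.50 (−2.33 to −0.68, edgeR adjusted p = 0.78) and 7 of 8 pairs were lower. Efnb2, an ephrin ligand, had a log2 fold change of −1.18, and Slit2, a secreted repellent, one of −0.86. Without WT Ngn3+Pdx1+MafA replicate 3, at passage 5, Epha4 was at −0.75 and Efnb2 at −0.45, and at passage 2 alone they were at −0.72 and −0.50. Without the Ngn3 reporter Epha4 was at 80.1 to 232 CPM and Efnb2 at 52.6 to 127 CPM. The median of the list was 0.03 without WT Ngn3+MafA replicate 1 and 0.02 without WT Ngn3+Pdx1 replicate 1.

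The Notch pathway restrains Ngn3 through Hes repressors, and Ngn3 in turn activates the ligand Dll1. Of 31 members 20 were above 0 (56.1% of all genes), with a median of 0.21, and 2 were higher (3.27% of all genes) and 2 lower (2.65% of all genes) at an unadjusted p under 0.05. The median was 0.62 without WT Ngn3+Pdx1 replicate 1. Jag1, a ligand expressed in duct cells, was at 7.64 to 83.8 CPM with 6SA (median 37.5) and 15.8 to 131 CPM with WT (median 67.9), a log2 fold change of −1.02 (−1.66 to −0.39, edgeR adjusted p = 0.78), lower in 7 of 8 pairs. Rbpj, the pathway's DNA-binding factor, had a log2 fold change of −0.65. Hes6, which is induced in endocrine progenitors and opposes Hes1, was at 194 to 520 CPM with 6SA (median 277) and 131 to 318 CPM with WT (median 191), a log2 fold change of 0.63 (0.18 to 1.09, edgeR adjusted p = 0.78), higher in 7 of 8 pairs. Dtx1 was the other higher gene. Hes6 was at 0.42 without 6SA Ngn3+Pdx1+MafA replicate 1 and Rbpj at −0.39 without WT Ngn3+Pdx1+MafA replicate 3. Hes1 overlapped between the forms, with medians of 41.4 and 42.2 CPM.

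The kinases and ubiquitin ligases that act on Ngn3 had a median of −0.03, with 5 of 12 above 0 (56.1% of all genes) and 0 at an unadjusted p under 0.05 (5.92% of all genes). Partners of Ngn3 among the E and Id proteins were above 0 in 8 of 9 genes, with a median of 0.35, and the same list had a median of 0.44 between the cultures in cells without the reporter.

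Mitosis genes had the highest median of the lists. All 30 had a log2 fold change above 0 (56.1% of all genes) and 22 were higher in all 3 combinations (18.4% of all genes), with a median of 1.51. At an unadjusted p under 0.05, 12 were higher (3.27% of all genes), among them the cyclins Ccna2, Ccnb1 and Ccnb2 and the kinetochore genes Ndc80, Nuf2 and Cenpa, and 0 lower (2.65% of all genes). When 1 sample was left out, the number higher at that p ran from 1 to 19 and the number above 0 from 21 to 30. Genes of DNA replication had a median of 0.01, with 16 of 30 above 0 (56.1% of all genes), and the inhibitors and partners of cyclin-dependent kinases a median of −0.00, with 10 of 21 above 0.

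The mitosis level rested on a few samples. With Ngn3+Pdx1 the mean log2(CPM + 1) over the list was 2.96, 5.93 and 1.38 in replicates 1, 2 and 3 with 6SA and 1.28, 4.89 and 3.01 with WT. With Ngn3+MafA it was 1.80, 2.56 and 1.45 against 1.37, 1.02 and 1.32, and with Ngn3+Pdx1+MafA it was 1.04 and 3.35 against 1.14, 1.03 and 1.38. In 3 samples of 6SA cells and 2 of WT cells it was thus above 2.9, and all other samples lay at 2.56 or below. The median log2 fold change of the list was 0.46 without 6SA Ngn3+Pdx1+MafA replicate 2, 0.75 without 6SA Ngn3+Pdx1 replicate 2 and 2.09 without WT Ngn3+Pdx1 replicate 2. It was 2.01 at passage 2 and −0.94 at passage 5, with 30 and 8 of 30 genes above 0. It was 0.91 when replicate numbers were blocked.

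Single mitosis genes showed the same spread. Mki67, a marker of cycling cells, was at 0.95 to 141 CPM with 6SA (median 3.87) and 0 to 163 CPM with WT (median 2.19). Top2a was at 0.61 to 200 CPM (median 14.1) and 0.243 to 199 CPM (median 2.29). Kif20a, a kinesin of cell division, was at 0.458 to 37.4 CPM (median 3.99) and 0.522 to 5.75 CPM (median 1.13), a log2 fold change of 2.09 (0.71 to 3.46, edgeR adjusted p = 0.78), higher in 6 of 8 pairs. In cells without the reporter Mki67 reached 434 CPM and the median of the mitosis list between 6SA and WT cultures was −0.82. This background was uneven in passage, since only 6SA cultures gave a passage 5 sample of MafA cells. In MafA cells the mean log2(CPM + 1) over the list was 1.091 to 4.685 from 6SA cultures and 4.535 to 4.691 from WT cultures. The difference of the 6SA effect with and without the reporter, which uses this uneven background, had an unadjusted p under 0.05 in 16 of the 30 genes. All were higher with the reporter, where 1.4% of all genes did so. No gene passed that test after adjustment in edgeR, and DESeq2 called 5 genes (0.0209%).

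**Figure D4:**
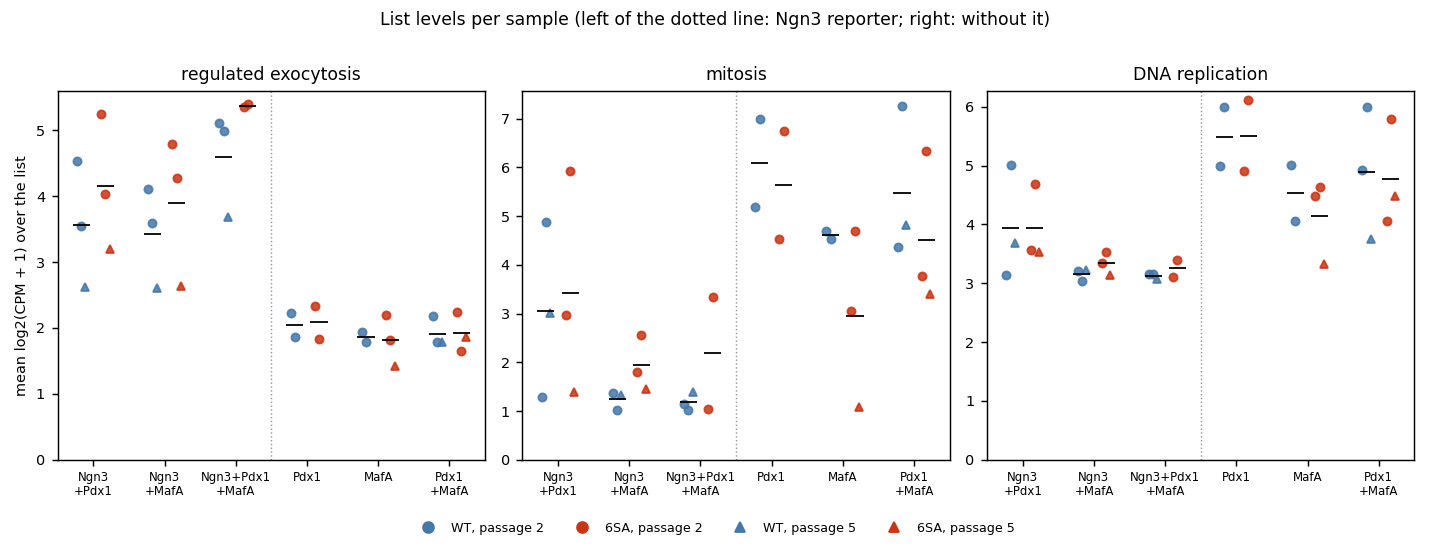
Mean log2(CPM + 1) per sample over the regulated exocytosis, mitosis and DNA replication lists (vertical axes) by factor combination, with cells carrying the Ngn3 reporter left of the dotted line and cells without it on the right. Points are samples (circles passage 2, triangles passage 5, blue WT, red 6SA) and bars are group means. Mitosis reaches 5.93 in 1 sample of 6SA Ngn3+Pdx1 and 4.89 in 1 of WT, and exocytosis is lowest at passage 5 in each group with the reporter that has such a sample.

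Targets of p53 lay mostly below 0. Of 24 p53 targets 16 had a log2 fold change below 0 (56.1% of all genes were above 0), 9 in all 3 combinations (11.2% of all genes), with a median of −0.20. Zmat3 and Tnfrsf10b, a death receptor, were lower with 6SA in 8 of 8 pairs. Tnfrsf10b was at 4.95 to 43.3 CPM with 6SA (median 23.5) and 12.2 to 57.0 CPM with WT (median 47.2), a log2 fold change of −0.88 (−1.46 to −0.30, edgeR adjusted p = 0.78). Zmat3 and Eda2r had log2 fold changes of −0.48 and −0.61. Cdkn1a, which encodes the p21 inhibitor, was at 594 to 1697 CPM and 542 to 1630 CPM, a log2 fold change of −0.09. Cdk6, a kinase of G1, was at 31.1 to 472 CPM with 6SA (median 268) and 41.3 to 559 CPM with WT (median 435), a log2 fold change of −1.02 (edgeR adjusted p = 0.78). Without WT Ngn3+Pdx1+MafA replicate 3 Cdk6 was at −0.46 and Eda2r at −0.36. The median of the p53 list was −0.03 at passage 2 and −0.36 at passage 5.

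The forms overlapped in duct genes. Their median was 0.03, with 17 of 31 above 0 (56.1% of all genes). Sox9, the transcription factor of duct progenitors, was at 22.1 to 242 CPM with 6SA and 47.6 to 218 CPM with WT, and its log2 fold change was −0.01 (−0.91 to 0.88, edgeR adjusted p = 0.9999). Krt19, a duct keratin, was at 6.10 to 401 CPM and 5.27 to 348 CPM, and Clu, a secreted chaperone abundant in these organoids, at 3295 to 28340 CPM and 2269 to 16280 CPM. Without the Ngn3 reporter Krt19 was at 567 CPM or above and Clu at 32760 CPM or above in all 15 samples. Krt19 and Clu were thus higher without the reporter than in any sample of either form with it, whereas the levels of Sox9 overlapped.

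Among housekeeping lists, ribosomal protein genes were below 0 in 31 of 35 (56.1% of all genes were above 0), with a median of −0.20. The medians were 0.12, 0.19 and −0.90 in Ngn3+Pdx1, Ngn3+MafA and Ngn3+Pdx1+MafA, and the list median was −0.01 without 6SA Ngn3+Pdx1+MafA replicate 2. That sample also had the lowest share of mitochondrial counts, 1.85%, where the others had 3.38% to 11.6%. Whether this sample's makeup bears on the results of its group was not tested.

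The genes with the lowest edgeR p are given with the caution that none passed in edgeR. DESeq2 called 5 of the 8 higher and 7 of the 8 lower ones. The 8 higher ones were Sord, Gimap6, Col14a1, Cartpt, Neu2, Tbc1d10c, Slc18a3 and Hoga1. Sord, which oxidises sorbitol to fructose, was higher in 8 of 8 pairs. It was at 8.38, 21.6 and 6.21 CPM against 2.08, 6.07 and 4.26 CPM with Ngn3+Pdx1. With Ngn3+MafA it was at 14.3, 5.399 and 2.90 CPM against 5.65, 4.04 and 1.36 CPM, and with Ngn3+Pdx1+MafA at 1.97 and 13.0 CPM against 1.30, 0.15 and 0.66 CPM. The log2 fold change was 1.98 (1.09 to 2.86, edgeR adjusted p = 0.671, DESeq2 adjusted p = 0.00579), and at passage 5 it was 0.81. In cells without the reporter Sord was at 12.2 to 49.3 CPM, above the median of either form.

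Cartpt encodes a neuropeptide that islet cells also make. It was at 2.86 to 247 CPM with 6SA (median 15.2) and 0.16 to 20.6 CPM with WT (median 2.02), higher in 7 of 8 pairs, with a log2 fold change of 2.81 (1.43 to 4.19, edgeR adjusted p = 0.771, DESeq2 adjusted p = 0.0784). Without the reporter it was at most 0.11 CPM. Hoga1, an enzyme of hydroxyproline breakdown, was at 2.60 to 18.1 CPM with 6SA and 1.73 to 6.31 CPM with WT, a log2 fold change of 1.39 (edgeR adjusted p = 0.78, DESeq2 adjusted p = 0.0446). The collagen gene Col14a1 was at 0.49 to 20.9 CPM and 0 to 19.6 CPM, a log2 fold change of 2.96 (edgeR adjusted p = 0.771).

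Several of the 8 were near the limit of detection. Slc18a3, the vesicular acetylcholine transporter, was at 0 to 7.48 CPM with 6SA and had counts in 1 of 9 WT samples, at 0.28 CPM. Gimap6, a GTPase gene known from lymphocytes, had no counts in the 3 WT Ngn3+Pdx1 samples and 3.26, 2.67 and 5.41 CPM with 6SA. Neu2, a sialidase, had no counts in any WT sample with Ngn3+Pdx1 or Ngn3+MafA and was at most 5.12 CPM with 6SA, and Tbc1d10c was at most 3.39 CPM with 6SA. No fold is given where a whole group had no counts.

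Of the 8 lower genes, 7 are described: Il18rap, Plau, Wincr1, Trim16, Lrrc8c, Col5a3 and Ly75. Il18rap, a subunit of the interleukin 18 receptor, was at 0 to 19.1 CPM (median 5.03) and 0 to 25.1 CPM (median 19.03), with no counts in either 6SA sample with Ngn3+Pdx1+MafA (edgeR adjusted p = 0.498, DESeq2 adjusted p = 0.000224). Plau, the urokinase protease, was at 0 to 24.8 CPM (median 2.86) and 0 to 79.2 CPM (median 15.5). With Ngn3+MafA, Plau was at 2.81, 1.97 and 2.90 CPM against 17.7, 15.5 and 38.3 CPM.

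Lrrc8c, a subunit of volume-regulated anion channels, was lower in 8 of 8 pairs. It was at 4.69 to 73.4 CPM with 6SA (median 36.3) and 12 to 182 CPM with WT (median 98.7), a log2 fold change of −1.51 (−2.25 to −0.77, edgeR adjusted p = 0.771, DESeq2 adjusted p = 0.0179). Trim16, a ubiquitin ligase gene, had a log2 fold change of −1.76 (edgeR adjusted p = 0.671, DESeq2 adjusted p = 0.00578). Ly75, an endocytic receptor, had one of −1.08 (edgeR adjusted p = 0.78, DESeq2 adjusted p = 0.0231). By combination, in the order Ngn3+Pdx1, Ngn3+MafA and Ngn3+Pdx1+MafA, the log2 fold changes were −0.44, −0.76 and −4.08 for Trim16 and −0.91, −0.25 and −2.08 for Ly75. At passage 5 Trim16 was at −0.13 and Ly75 at −0.51. Wincr1, a long noncoding RNA gene, was at 0 to 9.71 CPM with 6SA and 0.08 to 20.2 CPM with WT, and the collagen gene Col5a3 had no counts in the 3 samples of 6SA Ngn3+Pdx1. Without the reporter Il18rap was at 6.14 to 69.5 CPM, Plau at 4.47 to 77.4 CPM and Trim16 at 53.3 to 120 CPM. For these 3 genes the median without the reporter was above the median of either form with it in cells from both kinds of culture. In Ngn3+Pdx1+MafA, the WT sample at passage 5 was the highest of its group for Plau, Wincr1, Trim16, Lrrc8c and Ly75, and 6SA had no sample at that passage.

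**Figure D5:**
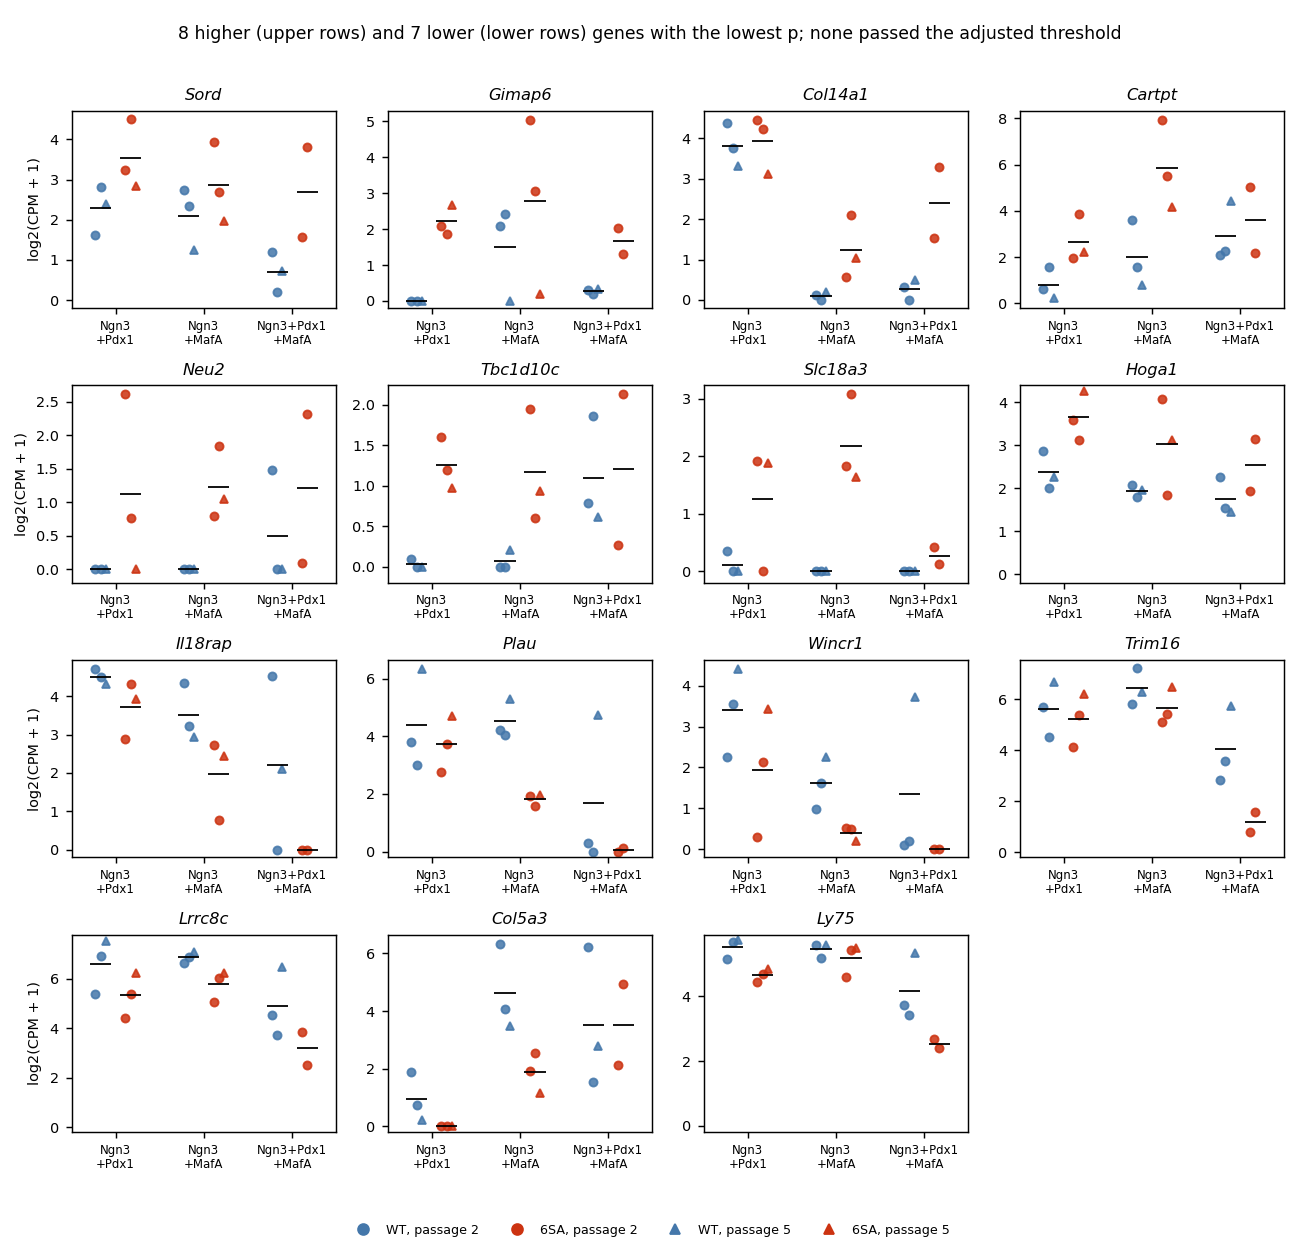
Levels of 8 higher (upper 2 rows) and 7 lower (lower 2 rows) genes with the lowest p in the contrast over the 3 combinations, as log2(CPM + 1), by factor combination. Each point is 1 of 17 samples (circles passage 2, triangles passage 5, blue WT, red 6SA) and bars are group means. Sord is higher with 6SA and Lrrc8c lower in every same-numbered pair, while none of the 15 genes passed the adjusted threshold in edgeR and several did in DESeq2.

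Each combination on its own gave no gene past the threshold in edgeR. With Ngn3+Pdx1, 614 genes (2.56%) had an unadjusted p under 0.05, 286 higher (1.19%) and 328 lower (1.37%), and DESeq2 called 4 (0.0167%). With Ngn3+MafA there were 756 such genes (3.15%), 479 higher (2.0%) and 277 lower (1.15%), and DESeq2 called 12 (0.067%). With Ngn3+Pdx1+MafA there were 975 (4.06%), 480 higher (2.0%) and 495 lower (2.06%), and DESeq2 called 35 (0.19%). The test of whether the 6SA effect differed between the combinations also gave 0 genes, with 658 (2.74%) at an unadjusted p under 0.05 and 0 by DESeq2. Between 6SA and WT cultures in cells without the reporter 0 genes passed, with 591 (2.46%) at an unadjusted p under 0.05 and 8 by DESeq2 (0.0334%). The difference of the 6SA effect with and without the reporter gave 0 genes, with 647 (2.7%) at an unadjusted p under 0.05 and 5 by DESeq2 (0.0209%).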

How the data were processed

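RNA-seq libraries of 50 sorted cells were read as single 50 bp reads. The deposited table holds raw counts per gene that the authors made before any normalization, and the submitters' processing notes name GSNAP, HTSeq 0.5.3p3 and mm10. Rows that name no gene held 41.717% of all counts and were left out, as were the 92 spike-ins. All columns were mapped to samples by title (0 not mapped).

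Technical repeats were summed. Of 46078 genes, 24004 detected in at least 5 libraries and with a variance of log2(CPM + 1) above 0.001 were tested with edgeR 4.0.16 in R 4.3.3 (TMM scaling, quasi-likelihood F-test, Benjamini-Hochberg adjustment, prior count of 0.125). DESeq2 1.42.0, other filters and scalings, passages, a replicate block, thinning and leaving out each sample were alternatives. Scripts were tested on simulated data. Gene lists and members were chosen with earlier results of these data known. The rule for named genes was the factors, hormones, Neurod1, Chga, Chgb, Sox9, Krt19 and Clu. Since none passed in edgeR, the 8 higher and 8 lower genes with the lowest edgeR p over the 3 combinations were added. Some items that the rule or the lists hold are not reported here.

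Deviations from the group means of same-numbered samples correlated at 0.762, 0.44 and 0.569 with Ngn3+Pdx1, at 0.661, 0.425 and 0.694 with Ngn3+MafA, and at 0.228 and −0.131 with Ngn3+Pdx1+MafA, so the numbers, which also mark the passage, pair the samples in the first 2 combinations. Codon positions were read from GENCODE M21 (GRCm38).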

Additional observations from a re-analysis of the deposited data

Results flagged for a closer look

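One library of 6SA Ngn3+Pdx1+MafA, replicate 3, held 408733 gene counts and entered no comparison other than the alternative with all libraries, and 3 counts in it stand for 7.34 CPM. Its signal was above the highest of the 15 samples without the Ngn3 reporter for 9 genes. Neurog3 was at 29.4 CPM (12 counts) against at most 0.788 CPM, Pdx1 at 179 CPM against 37.7 CPM and Mafa at 14.7 CPM against 4.21 CPM. Neurod1 was at 157 CPM against 0.349 CPM, Chga at 717 CPM against 4.67 CPM and Chgb at 1495 CPM against 3.12 CPM. Among hormones, Sst was at 17107 CPM against 31.6 CPM, Ghrl at 3959 CPM against 2.24 CPM and Iapp at 2576 CPM against 46.5 CPM. Ins1 and Pyy had 1 count each, and Ins2, Gcg and Ppy had 0, below the level that 3 counts give. It is the only passage 5 library of that group.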

How the results depend on the processing

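In edgeR 0 genes passed in each of the 7 comparisons with RLE scaling, filterByExpr, legacy=FALSE, passage 2 only, all libraries, the deepest technical repeat, thinning and the replicate block, and, where they could be run, with passage 5 only and Ngn3 conditions only. The block, which pairs replicate numbers, changed no call (0 in each), with 1827 genes at an unadjusted p under 0.05 over the 3 combinations. Called genes with DESeq2 were 26 over the 3 combinations, 4 with Ngn3+Pdx1, 12 with Ngn3+MafA, 35 with Ngn3+Pdx1+MafA, 8 without the reporter and 5 for the effect with against without it. In edgeR with no gene filter, the genes called in these comparisons were 239, 14, 88, 169, 6 and 101, and 125 between combinations. The cause was not tested. Leaving out 1 sample gave 0 to 3 calls over the combinations (3 without WT Ngn3+Pdx1+MafA replicate 2), 0 to 2 with Ngn3+MafA (2 without WT Ngn3+MafA replicate 1, 1 without 6SA Ngn3+MafA replicate 2), 0 to 5 with Ngn3+Pdx1+MafA (5 without WT replicate 2), 0 to 1 without the reporter (1 without WT MafA replicate 1) and 0 to 2 between combinations (2 without WT Ngn3+MafA replicate 1).

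Of the log2 fold changes of genes named in the text, some of which are not printed there, these changed sign. At passage 5 they were −1.47 for Mafa (a fitted value with groups at 0, no bound), 3.67 for Pyy, 1.14 for Isl1, 0.15 for Sox9, −3.22 for Mki67, −0.96 for Top2a, −0.58 for Kif20a and −1.62 for Cenpa. At passage 2 they were −0.12 for Sst, 0.65 for Ghrl, −0.43 for Iapp and 0.0257 for Sox9. Members named as higher or lower without a fold also changed sign at passage 5, with −2.07 for Slc2a2, −4.00 for Npas4, −2.29 for Ccnb2, −0.18 for Ccna2 and 0.41 for Unc5b, and Ndc80 and Nuf2, which had a group at 0, were below 0. With all libraries Ghrl was at 0.37 and Cdkn1a at 0.00942, with the deepest repeat Iapp was at −0.0138 and Pyy at 0.31, with the block Pyy was at 0.16, and thinned Sox9 was at 0.00538. Without single samples the ranges were −0.62 to 2.39 for Sst, −0.97 to 0.13 for Ghrl, −0.34 to 2.34 for Iapp, −5.30 to 0.20 for Pyy, −0.23 to 0.16 for Sox9, −0.55 to 0.76 for Krt19, −0.14 to 2.22 for Top2a and −0.38 to 0.0919 for Cdkn1a. Of 1479 gene values under alternatives, 1401 kept direction and side of the threshold. With each gene that had a group at 0 set at its bound, the median was 0.02 over all genes and 1.46 for mitosis. Shallow pools limit genes under about 1.16 CPM.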
